A study of Homo sapiens with 18 samples.

Results

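Chromosome bands 12q13 to 12q15 hold CDK4 and MDM2, and the genes described here are 10 of their neighbours: GLI1, OS9, AGAP2, TSPAN31 and METTL1 beside CDK4, and NUP107, CPM, YEATS4, FRS2 and CCT2 beside MDM2. They were chosen by position and name and not by a cut on their values, though earlier results of these data were known. All 10 were found by symbol among the 23368 gene rows of the deposited tables, and all 10 had enough reads to be tested in each of the 10 comparisons below. CDK4 and MDM2 themselves are given only as the genes next to which these lie. CPM is written only for the gene of carboxypeptidase M, and levels are given as normalised counts, the reads of a gene per 1000000 reads counted in its library.

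In sarcomas, parts of 12q13 to 12q15 are often present in extra copies, and CDK4 and MDM2 are regarded as the genes for which such copies are selected. CDK4 is a kinase that phosphorylates the retinoblastoma protein and lets cells enter S phase, and MDM2 is a ubiquitin ligase that keeps p53 low. The genes between and around them can be carried along in the same copies, and a gene in extra copies still answers to its own promoter, so that neighbours may respond to a drug in different ways.

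SJSA-1 is an osteosarcoma cell line with amplified CDK4 and MDM2 and functional p53. RNA was sequenced from 18 libraries of this line in 6 groups of 3. DMSO was the solvent control. Nutlin, which blocks the binding of MDM2 to p53, was given at 20 µM for 6 h (group Nutlin). PD0332991 (Palbociclib), an inhibitor of CDK4 and CDK6, was given at 10 µM either for 24 h, followed by 6 h without it (PD24), or for 30 h throughout (PD30). In N+PD24 and N+PD30, Nutlin was added for the last 6 h of either schedule. All groups share the same line. The study calls the libraries of a group biological triplicates, and the labels give only a replicate number, so p-values measure the spread between such libraries of 1 line. Gene copies were not measured here.

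Total counts lay between 12704845 and 40231041 per library, and the shallowest library was N+PD30 replicate 1. Of the osteoblast-lineage markers, COL1A1 (1728 normalised counts, mean of the 3 DMSO libraries), SPARC (1430) and RUNX2 (30.2) were high, whereas SP7, BGLAP and IBSP were at or near 0 in every library. The blood markers PTPRC and CD3E did not exceed 0.492 normalised counts in any library. The targeted proteins are inhibited by the drugs and not deleted, so no transcript checks the labels directly, but MDM2, a p53 target, was higher in each of the 9 libraries with Nutlin than in any without it. MDM2 alone reached 19728 to 28174 normalised counts in the Nutlin libraries.

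All 10 genes lie on chromosome 12 (GRCh37, the build of the deposited counts, GENCODE positions). On the CDK4 side, GLI1 spans chr12:57853568-57866051, OS9 chr12:58087624-58122125, AGAP2 chr12:58117544-58135940, TSPAN31 chr12:58131796-58144002 and METTL1 chr12:58162254-58165902. On the MDM2 side, NUP107 spans chr12:69080731-69139589, CPM chr12:69235977-69365350, YEATS4 chr12:69753490-69784650, FRS2 chr12:69864129-69973573 and CCT2 chr12:69979206-69995350. AGAP2, METTL1 and CPM are on the minus strand and the other members on the plus strand. TSPAN31 runs into CDK4 from the opposite strand (chr12:58141510-58144002), where 1078 bases belong to exons of both main transcripts, which is 29.3% of the TSPAN31 transcript and 57.8% of that of CDK4. CPM runs into MDM2 from the opposite strand (chr12:69235977-69239324), where the main transcripts share no exon base and 133 bases are exonic in any transcript. The overlap of these gene spans depends on the annotation, with 3348 bases here and 8490 in RefSeq on GRCh38. That of TSPAN31 with CDK4 is 2493 bases in both. Exon overlap was read from GENCODE only, and not from the annotation the authors counted on. AGAP2 overlaps OS9 (744 exonic bases in any transcript) and TSPAN31 (189), both on the opposite strand. METTL1 shares 107 exonic bases with CYP27B1 on its own strand and 114 with EEF1AKMT3, listed as METTL21B in the tables, on the other strand. The authors counted with a setting for reverse-stranded reads. Their methods name the TruSeq RNA LT kit of Illumina for the libraries, but do not state whether it kept the strand. Whether reads from the shared stretches of genes on opposite strands were assigned to the right gene is therefore not known, and it was not tested.

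The promoter windows below, from RefSeq (GRCh38.p14), run from 250 bases before a transcription start to 20 bases after it. They are shown because NUP107 and YEATS4 were the only members below every DMSO library in all 15 others, TSPAN31 the only one above every DMSO library in all 15, and CPM the member next to MDM2 whose level rose most with Nutlin. The MDM2 window lies at its internal start. In MDM2, CPM, TSPAN31 and NUP107 the capitals mark the pair of p53 half-sites (10 letters each, at most 13 letters between them) with the fewest mismatches. In YEATS4 they mark TTTGAA, the letters of a cell cycle homology region (CHR).
MDM2, chr12:68808767-68809036, plus strand: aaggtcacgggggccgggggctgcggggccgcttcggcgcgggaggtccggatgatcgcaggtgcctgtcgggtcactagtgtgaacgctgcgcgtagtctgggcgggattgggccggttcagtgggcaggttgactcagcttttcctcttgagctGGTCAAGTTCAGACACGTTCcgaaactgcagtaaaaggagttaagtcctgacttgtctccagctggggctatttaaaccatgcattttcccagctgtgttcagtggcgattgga
CPM, chr12:68933180-68933449, minus strand: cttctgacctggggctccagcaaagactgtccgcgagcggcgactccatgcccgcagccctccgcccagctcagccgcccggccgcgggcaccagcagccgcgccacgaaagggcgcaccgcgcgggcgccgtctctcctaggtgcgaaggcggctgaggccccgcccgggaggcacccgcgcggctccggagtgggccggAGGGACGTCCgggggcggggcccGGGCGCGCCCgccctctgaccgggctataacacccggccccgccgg
TSPAN31, chr12:57744789-57745058, plus strand: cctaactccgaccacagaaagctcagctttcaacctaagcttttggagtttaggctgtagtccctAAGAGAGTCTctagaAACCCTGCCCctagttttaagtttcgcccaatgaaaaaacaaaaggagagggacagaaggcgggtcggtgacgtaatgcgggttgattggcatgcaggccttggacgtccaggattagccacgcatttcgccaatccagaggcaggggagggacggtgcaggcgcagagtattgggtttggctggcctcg
NUP107, chr12:68686728-68686997, plus strand: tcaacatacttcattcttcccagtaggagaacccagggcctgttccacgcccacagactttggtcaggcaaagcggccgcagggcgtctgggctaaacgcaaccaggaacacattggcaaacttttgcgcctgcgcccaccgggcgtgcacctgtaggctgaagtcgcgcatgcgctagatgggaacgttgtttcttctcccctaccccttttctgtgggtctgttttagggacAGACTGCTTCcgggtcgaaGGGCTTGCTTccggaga
YEATS4, chr12:69359493-69359762, plus strand: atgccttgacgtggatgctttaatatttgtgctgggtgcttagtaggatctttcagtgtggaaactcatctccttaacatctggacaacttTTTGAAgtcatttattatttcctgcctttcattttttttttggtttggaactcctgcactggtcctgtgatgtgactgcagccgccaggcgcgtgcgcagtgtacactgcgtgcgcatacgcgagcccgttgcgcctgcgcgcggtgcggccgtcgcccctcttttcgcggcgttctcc

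In the full windows of 300 bases, 8 of the 10 members had an entry (12 windows), and GLI1 and METTL1 had none. Both strands were searched for the p53 half-site, the E2F letters TTTCCCGC and TTTGGCGC, the CHR letters TTTGAA and TTCGAA and the GLI letters GACCACCCA. NUP107 held an exact p53 half-site from base 4 to base 13 after its start, a feature of 6.63% of all 35116 windows. TTTGAA stood in 1 window each of YEATS4 (from base -159), AGAP2 (from base -74) and CPM (from base -123), and in 15.2% of all windows. No member window held the other letters. The best pair of half-sites had 2 mismatches in MDM2 and in NUP107, which 7.82% of all windows reached, and 4 mismatches in CPM and in TSPAN31, which 84.2% reached. The search for pairs was added after the exact search. A match of letters is a description and not a binding site.

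Levels of the neighbours in untreated cells were far apart once divided by the length of the main transcript. In DMSO, OS9, an endoplasmic reticulum lectin that passes misfolded glycoproteins to degradation, reached 1155 ± 21.4 normalised counts per kb (SD, n = 3) and stood at percentile 99.8 of the 17958 genes with a length. CCT2, a subunit of the chaperonin TRiC that folds actin and tubulin, followed at 203 (percentile 98.6), then METTL1, the catalytic subunit of the tRNA m7G methyltransferase, at 155 (98.0) and GLI1, the transcription factor at the end of the Hedgehog pathway, at 121 (97.3). TSPAN31, a tetraspanin membrane protein, was at 68.6 (94.7). CPM, a membrane-bound carboxypeptidase, YEATS4, a reader of acetylated histones, and NUP107, a scaffold subunit of the nuclear pore, lay close together at percentiles 78.5, 78.4 and 77.3. FRS2, the adaptor that links FGF receptors to the MAPK pathway, and AGAP2, an Arf GTPase-activating protein that binds PI3 kinase, were lowest at percentiles 64.4 and 62.4. Of the 10 genes, 4 were above percentile 95. The whole region list held 67 genes with a length, of which 15 were above it. This list includes the 10 genes, CDK4 and MDM2, so these 4 are counted in the 15 as well. CDK4 (1565 normalised counts per kb) and MDM2 (346) were at percentiles 99.9 and 99.3.

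**Figure D1:**
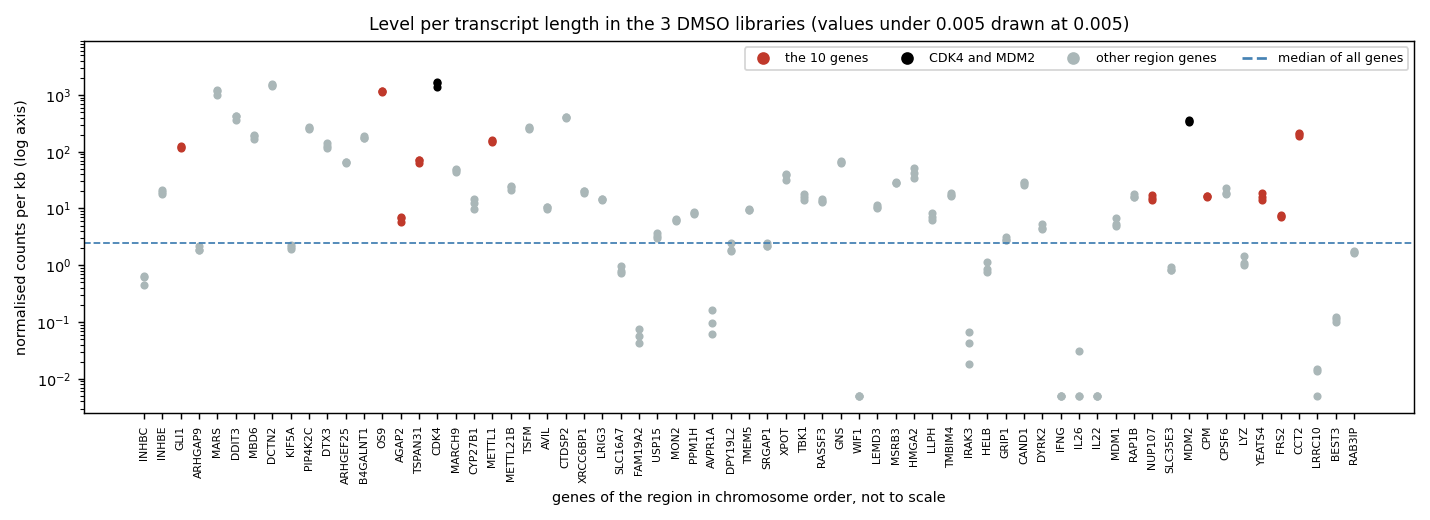
Level of each gene of the 12q13 to 12q15 region in the 3 DMSO libraries, in normalised counts per kb of the main transcript on a log axis, with genes in chromosome order. The 10 genes are red, CDK4 and MDM2 black, other genes of the region grey, and the dashed line is the median of all genes (2.44); all 10 lie above it.

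After Nutlin alone, 9 of the 10 neighbours changed against DMSO. OS9, TSPAN31, CPM and FRS2 rose, and GLI1, AGAP2, METTL1, NUP107 and YEATS4 fell, while CCT2 did not pass the test. Calls here are at an adjusted p of 0.05 in edgeR's quasi-likelihood test, at which 26.6% of the 15766 genes tested were higher and 28% lower, which stands beside 4 of the 10 genes higher and 5 lower. The median log2 fold change was -0.22 over the 10 genes and 0.03 over all genes. Scaling by total counts moved the median of all genes to -0.10, and of the called genes 36.7% instead of 48.7% were then higher. The cause of this shift was not tested.

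When PD0332991 was given alone, TSPAN31 rose and NUP107 and YEATS4 fell on either schedule. In PD24 against DMSO, TSPAN31 and METTL1 rose and NUP107, CPM and YEATS4 fell. The test called 2 of the 10 higher and 3 lower, beside 17.5% and 20.8% of all genes. In PD30 against DMSO, OS9, TSPAN31 and FRS2 rose and METTL1, NUP107, YEATS4 and CCT2 fell, which made 3 higher and 4 lower beside 22.9% and 25.4% of all genes. Of the genes called lower, all 3 in PD24 and 3 of 4 in PD30 lay on the MDM2 side, whereas both of those called higher in PD24 and 2 of 3 in PD30 lay on the CDK4 side. With 5 genes a side, that difference was not tested. PD24 and PD30 share the DMSO libraries.

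The PD0332991 schedules differed for 4 genes. In PD30 against PD24, AGAP2 and CPM were higher and METTL1 and CCT2 lower, beside 12.2% and 12.9% of all genes. In this comparison same-numbered libraries deviated together, and with the replicate as a block FRS2 was also higher (log2 fold change 0.28, adjusted p = 0.0180, against 0.215 without the block).

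Adding PD0332991 to Nutlin also moved 6 of the 10 genes on either schedule. In N+PD30 against Nutlin, AGAP2, METTL1 and FRS2 were higher and NUP107, CPM and CCT2 lower, beside 24.3% and 24.7% of all genes. In N+PD24 against Nutlin, tested with limma on log2(normalised count + 1), GLI1, TSPAN31 and METTL1 were higher and NUP107, CPM and YEATS4 lower, beside 16.5% and 20.6% of all genes. Same-numbered libraries deviated together there too, and with the block AGAP2 was called higher as well (0.40, adjusted p = 0.000970, against 0.0538). Both comparisons use the same Nutlin libraries.

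Nutlin added to PD0332991 was also compared with the same schedule without it. In N+PD24 against PD24, OS9, TSPAN31 and CPM were higher and METTL1, NUP107 and YEATS4 lower (limma), beside 13% and 23.7% of all genes. In N+PD30 against PD30 no member was called higher and only YEATS4 lower, beside 8.84% and 5.64% of all genes, although 5 of the 10 had an unadjusted p under 0.05. Same-numbered libraries deviated together in both. With the block, METTL1 (-0.44, adjusted p = 0.0234) and NUP107 (-0.38, adjusted p = 0.0290) were also called lower in N+PD30 against PD30, which made 3 genes. Scaling by total counts changed the share of higher genes among all calls from 61.1% to 43.8% in N+PD30 against PD30 and from 35.4% to 24.9% in N+PD24 against PD24.

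The interaction of Nutlin with PD30 asks whether the response to Nutlin differed under continuous PD0332991. It was called for 5 of the 10 genes, positive for METTL1, AGAP2 and YEATS4 and negative for CPM and TSPAN31, beside 12.8% positive and 7.03% negative of all genes. The interaction with PD24 was called for none of the 10 by limma, and 2 of them (AGAP2 and METTL1) had an unadjusted p under 0.05, beside 0.991% and 0.67% of all genes called. By edgeR on the recovered reads it was called for 0 of the 10 as well.

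Few of these changes were large. With an absolute log2 fold change over 1 required as well, 2 of the 10 genes were called in Nutlin against DMSO (METTL1 and YEATS4), beside 20.8% of all genes in either direction. In PD24 and in PD30 against DMSO it was 2 of the 10 each (NUP107 and YEATS4), beside 12.6% and 15.2%. METTL1 alone was left in PD30 against PD24 (7.49% of all genes), AGAP2 and NUP107 in N+PD30 against Nutlin (22.3%), METTL1, NUP107 and YEATS4 in N+PD24 against Nutlin (8.07%), and METTL1 and YEATS4 in N+PD24 against PD24 (9.45%). No member was left in N+PD30 against PD30 (3.68%), METTL1 in the interaction with PD30 (10.2%) and none in that with PD24 (0.942%).

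**Figure D2:**
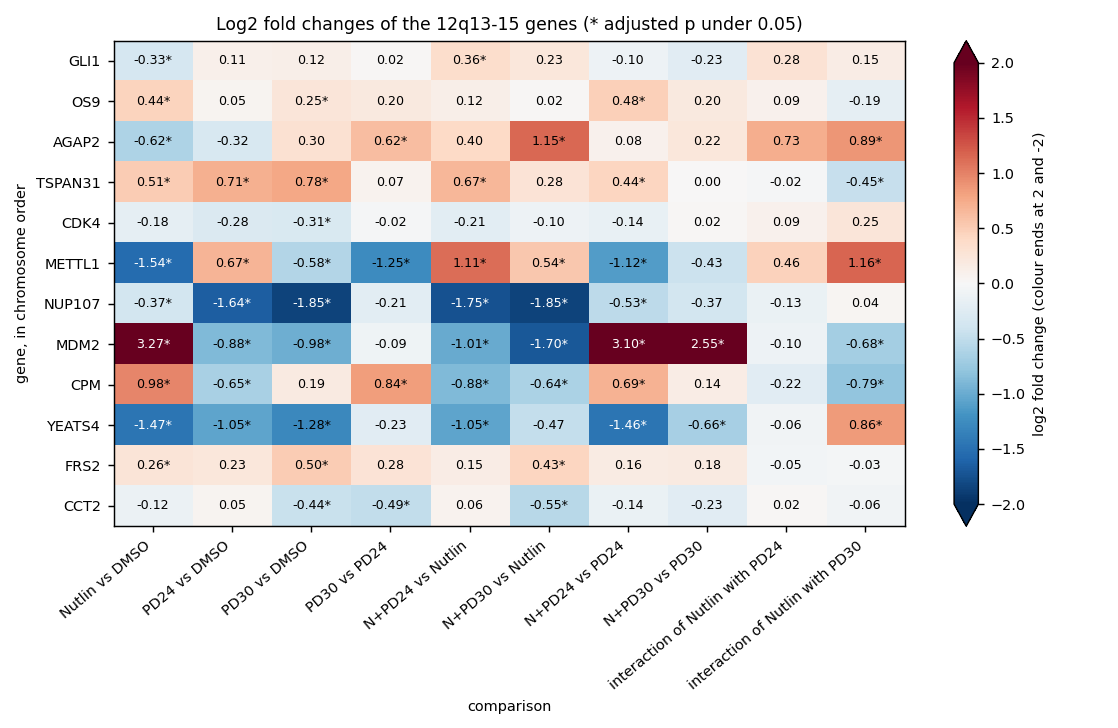
Log2 fold change of each of the 10 genes and of CDK4 and MDM2 (rows, chromosome order) in each comparison (columns), written in each cell and shown by colour, with an asterisk at an adjusted p under 0.05. NUP107 and YEATS4 are blue in all 3 comparisons with DMSO, TSPAN31 is red in all 3, and METTL1 changes colour between PD24 and PD30.

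**Figure D3:**
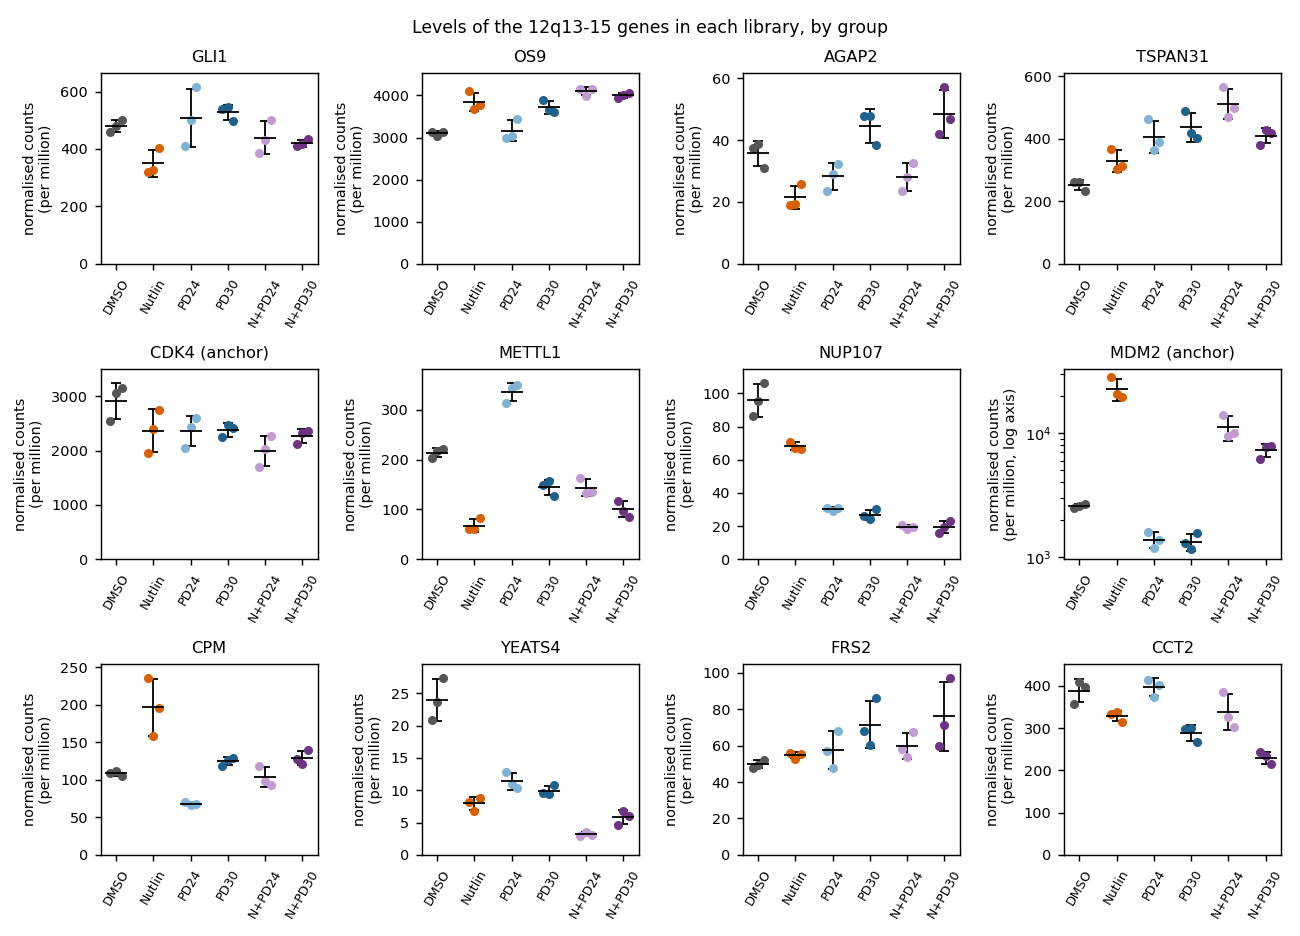
Normalised counts of the 10 genes, CDK4 and MDM2 in each library, with the mean and SD of each group of 3 as a bar and whiskers; MDM2 is on a log axis and all other axes start at 0. YEATS4 and NUP107 are below DMSO in every treated library and TSPAN31 is above it.

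Of the membrane and secretory genes, TSPAN31 stood at 260, 262 and 234 normalised counts in DMSO and 369, 302 and 314 in Nutlin. It was at 462, 366 and 389 in PD24 and 490, 417 and 404 in PD30. The combinations gave 565, 471 and 499 in N+PD24 and 382, 428 and 420 in N+PD30. Every treated library was above every DMSO library. Against DMSO the rise was 1.42-fold in Nutlin (log2 fold change 0.51 ± 0.10 SE, adjusted p = 0.00217, edgeR), 1.63-fold in PD24 (adjusted p = 0.00104) and 1.71-fold in PD30 (adjusted p = 0.000137). TSPAN31 was 1.59-fold higher in N+PD24 than in Nutlin (adjusted p = 0.00300, limma). N+PD30 and PD30 overlapped, with a log2 fold change of 0.00 ± 0.10 (SE). The interaction of Nutlin with PD30 was -0.45 ± 0.14 (SE, adjusted p = 0.0396), but the adjusted p was 0.0580 without a filter on low counts and was 0.0588 to 0.117 when any 1 of 9 libraries was left out (PD30 replicates 1 and 2, Nutlin replicate 1 and all of DMSO and N+PD30). The difference of N+PD24 from PD24 (0.44 ± 0.13 SE, adjusted p = 0.0266) was likewise lost, at 0.0508 to 0.0920, with total counts or without PD24 replicate 2 or 3 or any 1 of the N+PD24 replicates, all in fits without a block. In that comparison, where same-numbered libraries deviated together, the adjusted p with the replicate block was 0.000841.

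OS9 was at 3141, 3033 and 3119 normalised counts in DMSO, 4095, 3678 and 3770 in Nutlin, and 2993, 3042 and 3447 in PD24. It was at 3895, 3650 and 3597 in PD30, 4145, 3984 and 4157 in N+PD24, and 3947, 4001 and 4051 in N+PD30. Only the PD24 libraries overlapped those of DMSO. The rise was 1.36-fold in Nutlin (adjusted p = 0.00205), 1.19-fold in PD30 (adjusted p = 0.0139) and 1.39-fold in N+PD24 against PD24 (adjusted p = 0.0108). The call in PD30 was lost without DMSO replicate 2 (adjusted p = 0.0560) or PD30 replicate 1 (0.0656), and that in N+PD24 against PD24 without PD24 replicate 1 (0.0514) or without a filter on low values (0.0819), both without a block. With the replicate block the latter comparison had an adjusted p of 0.00163. Of 8 genes that work with OS9 in endoplasmic reticulum degradation, 5 rose and 1 fell in PD30 against DMSO, with a median of 0.41 (all genes 22.9% and 25.4%, median 0.00). ERLEC1, the other lectin of this route, rose by 0.74 on the log2 scale and the ubiquitin ligase SYVN1 by 0.57, while the chaperone HSP90B1 changed by -0.48. In Nutlin 4 of the 8 rose and 1 fell (median 0.20, beside 26.6% and 28% of all genes), led by the chaperone HSPA5 (0.64).

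CPM was at 109, 112 and 106 normalised counts in DMSO and 235, 159 and 196 in Nutlin. It was at 69.9, 66.1 and 68.4 in PD24 and 119, 127 and 130 in PD30. The combinations gave 119, 98.7 and 93.1 in N+PD24 and 128, 121 and 140 in N+PD30. The 3 Nutlin libraries were above all others and the 3 PD24 libraries below all others. Against DMSO, CPM rose 1.97-fold in Nutlin (log2 fold change 0.98 ± 0.13 SE, adjusted p = 0.000161) and was 1.57-fold lower in PD24 (adjusted p = 0.000471), while PD30 gave 0.19 ± 0.07 (SE, adjusted p = 0.0646). PD30 was 1.79-fold above PD24 (adjusted p = 0.000560). Nutlin raised CPM 1.61-fold after PD24 (adjusted p = 0.00269, limma), whereas the difference on top of PD30 was 0.14 ± 0.09 (SE, adjusted p = 0.325), and the interaction with PD30 was -0.79 ± 0.17 (SE, adjusted p = 0.00595).

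Of the signalling genes, GLI1 was at 460, 478 and 500 normalised counts in DMSO and 319, 327 and 404 in Nutlin. It was at 411, 500 and 615 in PD24 and 538, 545 and 498 in PD30. The combinations gave 385, 433 and 501 in N+PD24 and 411, 416 and 434 in N+PD30. The Nutlin libraries were all below DMSO, and the PD24 libraries spread on both sides of it. GLI1 was 1.26-fold lower in Nutlin than in DMSO (adjusted p = 0.0155), a call that was lost without Nutlin replicate 2 (adjusted p = 0.0590). It was called higher in N+PD24 than in Nutlin (0.36 ± 0.12 SE, adjusted p = 0.0409). The groups overlapped, but each N+PD24 library was above the Nutlin library of the same number, and with the replicate block, which the deviations of these libraries call for, the adjusted p was 0.000581. In fits without a block the call was lost without a filter on low values (0.0651), with total counts (0.0784) or without Nutlin replicate 1 or 2 or N+PD24 replicate 2 or 3 (0.0784 to 0.128). Against DMSO the PD0332991 groups differed by 0.11 ± 0.13 (PD24) and 0.12 ± 0.07 (PD30, both SE). Of 7 other Hedgehog genes, 2 fell and none rose in PD24 (all genes 20.8% lower), namely HHIP, a ligand-binding inhibitor (log2 fold change -2.02), and the transcription factor GLI3 (-2.22). Both also fell in PD30 (-1.62 and -2.03), as did the receptor PTCH1 (-0.49), which made 3 of 7 beside 25.4% of all genes.

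AGAP2 was at 37.4, 38.7 and 31.1 normalised counts in DMSO and 19.0, 19.4 and 25.9 in Nutlin. It was at 23.5, 29.1 and 32.2 in PD24 and 47.8, 47.7 and 38.4 in PD30. The combinations gave 23.4, 28.2 and 32.5 in N+PD24 and 42.0, 57.1 and 46.7 in N+PD30. All Nutlin libraries were below DMSO, and all N+PD30 libraries above it. AGAP2 was 1.53-fold lower in Nutlin than in DMSO (adjusted p = 0.00389) and 2.22-fold higher in N+PD30 than in Nutlin (log2 fold change 1.15 ± 0.16 SE, adjusted p = 0.000202). The interaction of Nutlin with PD30 was 0.89 ± 0.21 (SE, adjusted p = 0.00946). AGAP2 was also 1.54-fold higher in PD30 than in PD24 (adjusted p = 0.0161, and 0.00726 with the replicate block), and in fits without the block this call was lost without PD24 replicate 1 (0.0510) or PD30 replicate 1 (0.0597) or 2 (0.0542).

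FRS2 was at 47.9, 49.4 and 52.4 normalised counts in DMSO, 56.2, 52.8 and 55.4 in Nutlin, and 57.0, 47.5 and 68.3 in PD24. It was at 68.3, 60.6 and 86.0 in PD30, 58.0, 54.0 and 67.6 in N+PD24, and 59.8, 71.4 and 97.0 in N+PD30. In each group with PD0332991, replicate 3 was the highest. FRS2 rose 1.42-fold in PD30 against DMSO (log2 fold change 0.50 ± 0.12 SE, adjusted p = 0.00721). The call in Nutlin was marginal, at 0.26 ± 0.09 (SE, adjusted p = 0.0301), with an adjusted p of 0.222 with total counts, 0.0779 without a filter on low counts, 0.0593 in DESeq2, and 0.0546 to 0.126 without DMSO replicate 1 or 2 or Nutlin replicate 1 or 2. The difference of N+PD30 from Nutlin (0.43 ± 0.15 SE, adjusted p = 0.0383) was lost without any 1 of the Nutlin libraries or without N+PD30 replicate 2 or 3 (0.0650 to 0.145). Of 7 genes that act with FRS2, 2 fell and none rose in PD30, a share close to the 25.4% of all genes that fell, namely the receptors FGFR3, which fell by 2.12 on the log2 scale, and FGFR2, which fell by 0.85. In PD24 FGFR1 rose by 0.58 and the exchange factor SOS1 fell by 0.41. In Nutlin FGFR2 rose by 0.96 and SOS1 and FRS3, the paralog of FRS2, each fell by 0.67, so that 1 of 7 rose and 2 fell beside 26.6% and 28% of all genes.

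METTL1 was at 204, 217 and 221 normalised counts in DMSO and 60.2, 59.9 and 83.0 in Nutlin. It was at 314, 343 and 349 in PD24 and 149, 157 and 127 in PD30. The combinations gave 163, 133 and 134 in N+PD24 and 118, 97.7 and 85.7 in N+PD30. The PD24 libraries were above all others and those of every other treated group below DMSO. METTL1 was 2.90-fold lower in Nutlin than in DMSO (log2 fold change -1.54 ± 0.12 SE, adjusted p = 7.69e-06), 1.496-fold lower in PD30 (adjusted p = 0.000846) and 1.59-fold higher in PD24 (adjusted p = 0.000445). PD30 was 2.38-fold below PD24 (adjusted p = 0.000290). On top of PD24, Nutlin lowered METTL1 2.18-fold (adjusted p = 0.000115, limma). On top of PD30 the difference was -0.43 ± 0.15 (SE, adjusted p = 0.0963) without a block. With the replicate block, which the deviations of these libraries call for, it was called (-0.44, adjusted p = 0.0234). It was also called with total counts (0.0361) or without N+PD30 replicate 1 (0.0393), both without a block. The interaction with PD30 was 1.16 ± 0.20 (SE, adjusted p = 0.00171). METTL1 was higher in N+PD24 than in Nutlin (2.16-fold, adjusted p = 0.000332) and in N+PD30 (1.45-fold, adjusted p = 0.0210), the latter call being lost without Nutlin replicate 1 (0.0719) or 2 (0.0858) or N+PD30 replicate 1 (0.0572). WDR4, the partner of METTL1 in the methyltransferase, is coded on another chromosome. Its log2 fold changes against DMSO were -0.54 in Nutlin (adjusted p = 0.00947), 0.40 in PD24 (adjusted p = 0.0174) and -0.63 in PD30 (adjusted p = 0.00530), each in the direction of METTL1. WDR4 was also called lower in PD30 than in PD24 (-1.03) and in N+PD24 than in PD24 (-0.83, limma). Against Nutlin, where METTL1 was higher, WDR4 was called neither in N+PD24 (0.12) nor in N+PD30 (-0.12). It was not called in N+PD30 against PD30 either (-0.03).

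NUP107 was at 86.5, 95.2 and 106 normalised counts in DMSO and 70.8, 67.2 and 66.8 in Nutlin. It was at 30.9, 29.2 and 30.8 in PD24 and 25.8, 24.5 and 30.3 in PD30. The combinations gave 20.4, 18.1 and 19.3 in N+PD24 and 15.9, 19.4 and 23.0 in N+PD30. Every library with PD0332991 was below every library without it. NUP107 was 1.29-fold lower in Nutlin than in DMSO (adjusted p = 0.0111), 3.12-fold lower in PD24 (log2 fold change -1.64 ± 0.11 SE, adjusted p = 4.37e-06) and 3.61-fold lower in PD30 (-1.85 ± 0.11 SE, adjusted p = 1.14e-06). Against Nutlin it was 3.35-fold lower in N+PD24 (adjusted p = 2.52e-06, limma) and 3.61-fold lower in N+PD30 (adjusted p = 2.87e-06). The interaction with PD30 was 0.04 ± 0.18 (SE, adjusted p = 0.900). NUP107 belongs to the Y complex of the nuclear pore, of which 9 other genes were tested. In PD30 against DMSO 7 of these 9 fell, beside 25.4% of all genes, with a median of -0.69, led by NUP43, which fell by 1.85, and NUP85, which fell by 1.61. SEC13, which is also part of the COPII vesicle coat, rose by 0.46. The count was the same in PD24, 7 lower and 1 higher with a median of -0.63 (20.8% of all genes lower), and in Nutlin, with a median of -0.46 (28% lower).

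YEATS4 was the member with the fewest reads, 59 to 845 per library. It was at 20.9, 23.6 and 27.3 normalised counts in DMSO and 8.16, 6.86 and 8.84 in Nutlin. It was at 12.8, 10.96 and 10.3 in PD24 and 9.64, 9.40 and 10.8 in PD30. The combinations gave 2.95, 3.60 and 3.14 in N+PD24 and 4.64, 6.79 and 6.05 in N+PD30. The means of the groups spanned 7.41-fold, the widest range of the 10 genes, and the combinations were below each single treatment. Against Nutlin, the difference was called in N+PD24 (-1.05 ± 0.13 SE, adjusted p = 0.000270, limma). In N+PD30 it was not called (-0.47 ± 0.19 SE, adjusted p = 0.0563, edgeR). Against DMSO, YEATS4 was 2.76-fold lower in Nutlin (log2 fold change -1.47 ± 0.14 SE, adjusted p = 2.69e-05), 2.07-fold lower in PD24 (adjusted p = 0.000641) and 2.43-fold lower in PD30 (adjusted p = 3.74e-05). N+PD24 was 2.75-fold below PD24 on the log2(normalised count + 1) scale, which understates the change of a gene this low (adjusted p = 4.80e-05, limma). N+PD30 was 1.58-fold below PD30 (adjusted p = 0.0302, and 0.0159 with the replicate block). Without the block this call was lost when any 1 of the PD30 libraries or N+PD30 replicate 1 or 2 was left out (adjusted p 0.0593 to 0.103). The interaction with PD30 was 0.86 ± 0.21 (SE, adjusted p = 0.0124). YEATS4 is a subunit of the NuA4/TIP60 acetyltransferase complex, of which 10 other genes were tested. Of these, 6 fell in PD30 and 4 in PD24, beside 25.4% and 20.8% of all genes, and 3 fell in Nutlin, which is close to the 28% of all genes. None of the 10 was called higher in these comparisons, and the medians were -0.34, -0.19 and -0.17. BRD8, a bromodomain subunit, fell by 1.13 in PD24, and ING3, a reader of methylated histone H3, fell by 1.04 in PD30.

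CCT2 was at 358, 409 and 398 normalised counts in DMSO, 332, 338 and 314 in Nutlin, and 414, 373 and 402 in PD24. It was at 298, 299.7 and 268 in PD30, 386, 325 and 302 in N+PD24, and 243, 233 and 215 in N+PD30. The PD30 and N+PD30 libraries were below all DMSO and PD24 libraries. Against DMSO, CCT2 was 1.36-fold lower in PD30 (log2 fold change -0.44 ± 0.09 SE, adjusted p = 0.00213). PD30 was also 1.41-fold below PD24 (adjusted p = 0.00605), and N+PD30 was 1.46-fold below Nutlin (adjusted p = 0.00365). In Nutlin against DMSO it gave -0.12 ± 0.09 (SE, adjusted p = 0.309), although the libraries did not overlap, and was called with total counts (-0.24, adjusted p = 0.0307). Of the 7 other TRiC subunits, 5 fell and none rose in PD30 against DMSO (median -0.52, beside 25.4% of all genes lower), among them CCT5, which fell by 0.74, and TCP1, which fell by 0.52. In PD24 1 of the 7 fell (CCT5), and in Nutlin 3 rose and none fell (median 0.26), beside 20.8% lower in PD24 and 26.6% higher in Nutlin of all genes.

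The pairs that overlap on opposite strands were also set side by side in each library. CPM counts per 1000 MDM2 counts were 42.1 ± 2.17 (SD, n = 3) in DMSO, 49.9 ± 5.87 in PD24 and 95.5 ± 13.6 in PD30. They were 8.63 ± 1.17 in Nutlin, 9.39 ± 1.02 in N+PD24 and 17.97 ± 2.53 in N+PD30. The ratio was lower in all 9 libraries with Nutlin than in all 9 without it, with a log2 difference of -2.37, and within DMSO, PD24 and PD30 the differences were -2.29, -2.41 and -2.41. This direction follows from the larger rise of MDM2, the p53 target already used above, so the difference is given as a description and says nothing on shared reads. MDM2 rose 9.67-fold in Nutlin against DMSO and CPM 1.97-fold. Per 1000 normalised counts gained by MDM2, CPM gained 4.32 with Nutlin against DMSO, 3.61 in N+PD24 against PD24 and 0.736 in N+PD30 against PD30. In the pair of PD24 and DMSO both genes fell, MDM2 by 0.88 and CPM by 0.65 on the log2 scale, but in PD30 MDM2 fell by 0.98 while CPM did not pass. The part of shared reads in these values was not tested.

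TSPAN31 counts per 1000 CDK4 counts were 87.5 ± 14.2 (SD, n = 3) in DMSO, 143 ± 39.3 in Nutlin, 175 ± 43.5 in PD24 and 185 ± 29.5 in PD30. They were 262 ± 61.4 in N+PD24 and 181 ± 3.21 in N+PD30. Replicate 1 was the highest of its group in DMSO, Nutlin, PD24, PD30 and N+PD24, and CDK4 was the lowest of its group in these same libraries. Libraries with PD0332991 were higher than those without by 0.83 on the log2 scale (1.03 without and 0.63 with Nutlin; exact permutation test, two-sided, p = 0.000567, adjusted over 3 tests of ratios 0.000850). Libraries with Nutlin were higher by 0.42 (same exact test, p = 0.013, adjusted 0.013), with 0.69 beside DMSO, 0.58 beside PD24 and -0.02 beside PD30. Without the PD24 and N+PD24 libraries the Nutlin difference was 0.33 (exact permutation test, p = 0.085). TSPAN31 alone was already called higher in Nutlin, PD24 and PD30 against DMSO, so the direction of these ratios against DMSO was known in advance. The p-values are therefore no separate support and say nothing on shared reads. The test of PD0332991 pooled both schedules, and neither test took the replicate number into account. CDK4 itself was below every DMSO library in 13 of the 15 others, by small amounts. Its log2 fold changes against DMSO were -0.18 ± 0.13 in Nutlin and -0.28 ± 0.12 in PD24, neither called without a block. In PD30 the change was -0.31 ± 0.09 (SE, adjusted p = 0.0231). The call in PD30 was lost without DMSO replicate 2 (0.0862) or 3 (0.0719) or PD30 replicate 1 (0.0900). The difference in PD24 was called without DMSO replicate 1 (0.0396) and with the replicate block (0.00697), though these libraries were not taken as paired. In N+PD24 against Nutlin, which were taken as paired, CDK4 was called lower with the block (-0.21, adjusted p = 0.0470, limma, against 0.280 without).

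**Figure D4:**
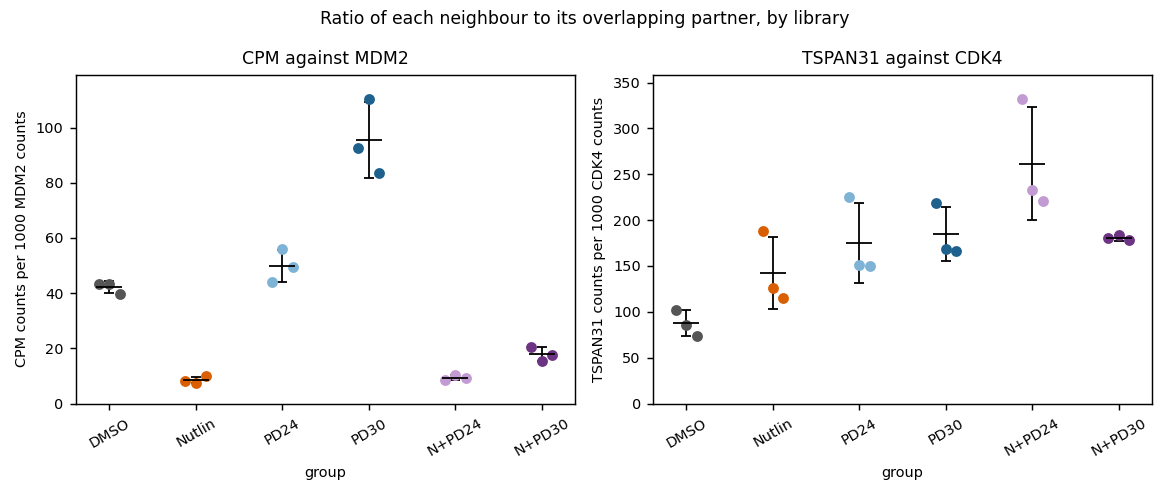
Counts of CPM per 1000 MDM2 counts (left) and of TSPAN31 per 1000 CDK4 counts (right) in each library by group, with mean and SD of 3; both axes start at 0. CPM per MDM2 is low in all 9 libraries with Nutlin, and TSPAN31 per CDK4 is lowest in DMSO.

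Likeness of response was measured as the Euclidean distance between the 5 differences from DMSO in mean log2(normalised count + 1), over 14460 genes. It is a description over 5 group means that share the DMSO libraries. MDM2 was in place 13740 for CPM (distance 3.60) and CDK4 in place 9808 for TSPAN31 (distance 2.48). The distance depends on the size of a response as well as on its direction. MDM2 differed from DMSO by 3.13 in Nutlin, and even its own nearest gene was at 0.68. Its place therefore cannot tell whether CPM moved in the same direction by a smaller amount. The genes nearest to CPM were REV3L, ZC3H7A and PAN2, at distances of 0.31 to 0.32. CD68, SPARC and SRGN were nearest to TSPAN31, and SRPX and LEPREL1 were among the 3 nearest to OS9. The genes nearest to GLI1 were C9orf30, CYLD and AMDHD1, those nearest to AGAP2 were KCTD7, DZANK1 and PCK2, and those nearest to FRS2 were TMED10, CPT2 and NYAP1. FOXD1 (distance 0.22), SRSF6 and TBX20 (0.52 each) were nearest to METTL1. SCLT1, CTNNAL1 and HAUS1 were nearest to NUP107, RNF219, CENPC1 and C17orf96 to YEATS4, and GTF2H2B, FAM173B and MRPS18C to CCT2. No member was among the 3 nearest genes of another member.

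The other genes of the region also held calls in both directions, as all genes did. Of the 56 further genes listed between INHBC and RAB3IP, 51 were tested in Nutlin against DMSO, where 12 were higher and 16 lower with a median of -0.15, beside 26.6% and 28% of all genes. In PD24 7 of 50 were higher and 16 lower (median -0.16, beside 17.5% and 20.8%), and in PD30 13 of 50 higher and 17 lower (median -0.02, beside 22.9% and 25.4%). By the rule on size, FAM19A2 (log2 fold change 3.70, from 0.234 to 2.85 normalised counts), MDM2 (3.27) and INHBC (2.95) rose most in Nutlin. MARCH9, whose name a spreadsheet had turned into a date (-1.72), METTL1 (-1.54) and MDM1 (-1.48) were lowest. In PD30 the only rise of this size was that of BEST3 (1.33, from 0.386 to 0.998 normalised counts), and the largest falls were those of AVPR1A (-2.87, from 0.669 to 0.0886 normalised counts), NUP107 (-1.85) and XRCC6BP1 (-1.49). In PD24 they were AVPR1A (-2.21), NUP107 (-1.64) and MDM1 (-1.30), with BEST3 (1.10, to 0.834 normalised counts) as the only rise. In PD30 against PD24, MARCH9 rose (1.03) and METTL1 fell (-1.25), and these 2 genes lie on either side of CYP27B1, on opposite strands.

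Against Nutlin, N+PD30 showed its largest rises of the region in BEST3 (2.56), MARCH9 (1.91) and METTL21B (1.72) and its largest falls in FAM19A2 (-3.31), IRAK3 (-2.52) and NUP107 (-1.85). Of these, 3 were low in level. BEST3 went from 0.182 ± 0.260 to 1.07 ± 0.257 normalised counts (SD, n = 3), FAM19A2 from 2.85 to 0.268 and IRAK3 from 1.99 to 0.361. In N+PD24 against Nutlin these were PIP4K2C (1.12) and METTL1 (1.11), and NUP107 (-1.75), LRIG3 (-1.53) and FAM19A2 (-1.40). When Nutlin was added to PD24, MDM2 (3.10) and INHBC (2.55) rose and METTL21B (-1.93), YEATS4 (-1.46) and MDM1 (-1.25) fell. Added to PD30, only MDM2 passed the rule (2.55). The largest interactions with PD30 were positive for MARCH9 (1.55), METTL1 (1.16) and METTL21B (1.16) and negative for IRAK3 (-2.56), INHBC (-2.53) and FAM19A2 (-2.30). That with PD24 was FAM19A2 (-1.22). MARCH9, METTL1 and METTL21B lie within a stretch of neighbouring genes next to CDK4.

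**Figure D5:**
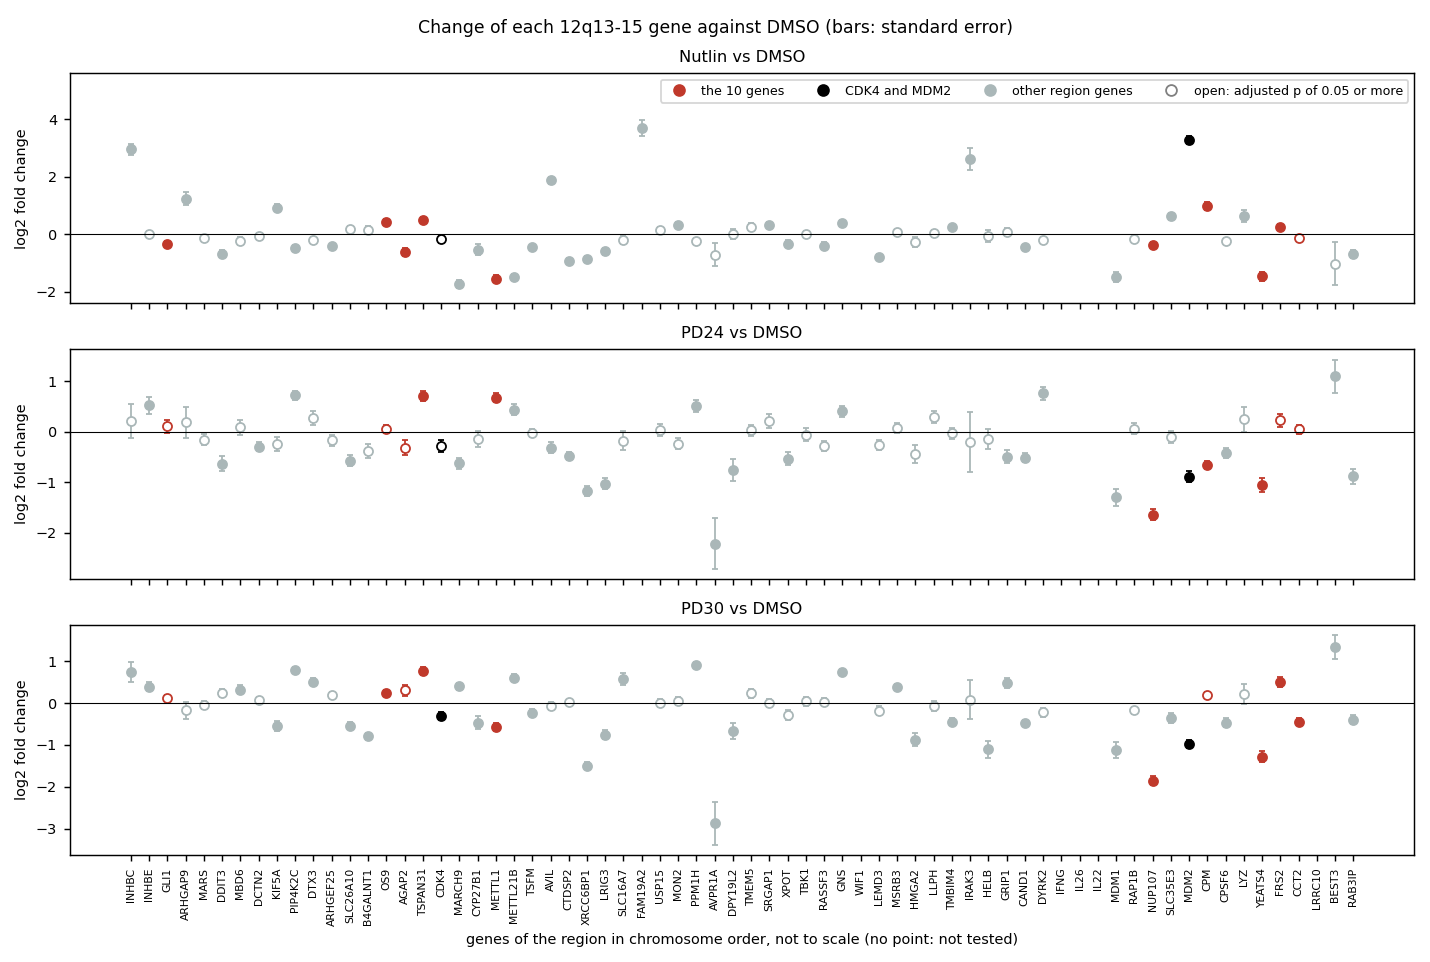
Log2 fold change with its standard error for each tested gene of the region in Nutlin, PD24 and PD30 against DMSO, in chromosome order, with filled points at an adjusted p under 0.05. The 10 genes are red and CDK4 and MDM2 black; genes that rose and genes that fell lie mixed along the region, and NUP107 and YEATS4 lie below 0 in all 3 panels.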

How the data were processed

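RNA of SJSA-1 cells was sequenced as single reads of 50 bp. Per the submitters' notes and the methods, reads were mapped to hg19 with TopHat and Bowtie 2 and assigned to gene symbols with HTSeq 0.6.0. The authors deposited read counts per gene for all groups but N+PD24. These values are called variance-stabilized in their names but are whole numbers whose totals differ between libraries, and they were used as counts. For N+PD24 the authors deposited a normalized signal, namely counts divided by 1 size factor per library. Multiplied back, 100% of these values were whole within 0.01. Tables of base means and of the authors' own comparison of Nutlin with DMSO were not used. Of 23368 gene rows, 28 had names turned into dates. Levels are normalised counts, scaled to 1000000 per library total (12704845 to 40231041).

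Comparisons between count groups used edgeR 4.0.16 in R 4.3.3 (quasi-likelihood test, TMM, filterByExpr, only the groups compared). Comparisons with N+PD24 used limma 3.58.1 with a trend on log2(normalised count + 1), for genes at a level of 1 or more in 3 libraries, since a count test fits only counts as deposited. Adjustment was by Benjamini-Hochberg over all genes tested, and an adjusted p under 0.05 was called. The standard error in edgeR is the log2 fold change divided by the root of F. Interactions used the 12 libraries of 4 groups. Ratios were compared by an exact permutation test within schedules or within Nutlin status, on log2 values with a pseudocount of 1. Scripts were tested on simulated data.

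Named genes are the 10 genes with CDK4 and MDM2, per comparison the 3 largest rises and falls of the region with an absolute log2 fold change over 1 and groups that do not overlap, the 3 nearest genes by response, and overlapping genes. The members, lists and tests were chosen with earlier results of these data known. The alternatives were RLE size factors, total counts, no filter on low values, DESeq2 1.42.0, edgeR on recovered reads, a pseudocount of 0.25, an absolute log2 fold change over 1, a replicate block and leaving out each library. The labels give the replicate numbers but not what they share. Deviations of same-numbered libraries from their group means correlated by more than 0.1 in every pair for PD30 with PD24 (0.322 to 0.618), N+PD30 with PD30 (0.205 to 0.711), N+PD24 with Nutlin (0.466 to 0.680) and N+PD24 with PD24 (0.221 to 0.575), which were therefore taken as paired. Exon positions were read from GENCODE on GRCh37 and promoters from RefSeq on GRCh38.p14. Values of a few genes are not reported here.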

Additional observations from a re-analysis of the deposited data

Results flagged for a closer look

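The response to Nutlin differed between cells without PD0332991 and cells under continuous PD0332991 by a test of the difference itself (the interaction term of edgeR's quasi-likelihood test over 12 libraries, each called at an adjusted p under 0.05). The values are the log2 response to Nutlin in PD30 minus that in DMSO. METTL1 had 1.16 (adjusted p = 0.00171), where Nutlin gave -1.54 without and -0.43 with PD0332991. AGAP2 had 0.89 (adjusted p = 0.00946), from -0.62 without to 0.22 with it. YEATS4 had 0.86 (adjusted p = 0.0124), from -1.47 to -0.66. CPM had -0.79 (adjusted p = 0.00595), from 0.98 to 0.14, and its overlapping partner MDM2 had -0.68 (adjusted p = 0.0326), from 3.27 to 2.55. TSPAN31 had -0.45 (adjusted p = 0.0396), from 0.51 to 0.00. With each library left out in turn, the adjusted p of METTL1, AGAP2, YEATS4 and CPM stayed at or below 0.0491, whereas that of TSPAN31 reached 0.117 and that of MDM2 0.0829.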

How the results depend on the processing

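With 3 libraries per group, small differences of the 10 genes were near the limit of what could be called, and YEATS4 had as few as 59 reads in a library. Requiring an absolute log2 fold change over 1 left 2 of the 10 genes in Nutlin (20.8% of all genes), 2 in PD24 (12.6%) and 2 in PD30 (15.2%) against DMSO, 1 in PD30 against PD24 (7.49%), 2 in N+PD30 against Nutlin (22.3%), 0 in N+PD30 against PD30 (3.68%), 3 in N+PD24 against Nutlin (8.07%), 2 in N+PD24 against PD24 (9.45%) and 1 in the interaction with PD30 (10.2%). In N+PD30 against PD30, total counts and the replicate block each gave 3 genes in place of 1, and the cause was not tested. All other alternatives of scaling, filter and tool kept each count of called genes within 1.5 times.

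With each library left out in turn, the number of called genes was 7 to 9 in Nutlin, 5 in PD24 and 6 to 8 in PD30 against DMSO, 3 to 4 in PD30 against PD24, 4 to 5 in N+PD30 against Nutlin, 0 to 1 in N+PD30 against PD30, 5 to 7 in N+PD24 against Nutlin, 5 in N+PD24 against PD24, 4 to 5 in the interaction with PD30 and 0 in that with PD24. The log2 difference of the CPM to MDM2 ratio with Nutlin was -2.41 to -2.33, and it was -2.58 with replicate number 2 alone. That of the TSPAN31 to CDK4 ratio was 0.76 to 0.94 with PD0332991 and 0.34 to 0.48 with Nutlin, and the latter was 0.33 (p = 0.085, exact permutation test) without the PD24 and N+PD24 libraries.

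Where the numbers did not pair the libraries (same-number correlations down to -0.296 for Nutlin with DMSO), the replicate block gave 8 called genes in Nutlin, 5 in PD24 and 8 in PD30 against DMSO and 5 in N+PD30 against Nutlin. Of the paired comparisons it gave 5 in PD30 against PD24, 7 in N+PD24 against Nutlin and 6 in N+PD24 against PD24. No fold change of the 10 genes, CDK4 or MDM2 that was called reversed its direction under any alternative.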
